A study of Homo sapiens with 6 samples.

Results

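The genes described here encode the spliceosome and its regulators, and 54 of them were followed among the 60612 genes measured. They were taken as a list of names, drawn up with earlier results of these data known but by no rule on their values, and matched to the Ensembl identifiers of the expression tables through GENCODE symbols. The list holds 12 SR and TRA2 proteins, 15 hnRNP and PTB proteins outside the hnRNP A group, 10 factors of the branch site and the 3′ splice site, 7 factors of the tri-snRNP and the PRP19 complex, and 10 proteins of the U1 particle and the Sm core. HCT116, an established human colorectal carcinoma line, had been infected with the control lentivirus LV-NC (3 libraries) or with the lentivirus LV-SNORA28, which carries the H/ACA small nucleolar RNA SNORA28 (3 libraries). Cells of both groups were infected and were collected 72 h later, so neither group is uninfected. The methods name the vector GV235 for the virus that carries SNORA28. Poly(A) RNA was sequenced in stranded, paired-end libraries. The labels do not say whether replicates came from separate cultures, so p-values measure the spread between these libraries, which may be technical.

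Most human genes are interrupted by introns, and the spliceosome removes them in a series of steps carried out by small nuclear ribonucleoproteins (snRNPs). The U1 snRNP reads the 5′ splice site, U2AF and the SF3 proteins of the U2 snRNP mark the branch site and the 3′ splice site, and the U4/U6.U5 tri-snRNP and the PRP19 complex then join and activate the catalytic centre. SR proteins mostly favour the use of nearby exons and hnRNP proteins often oppose it, so that the balance between these families helps to decide which exons a cell keeps.

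The targeted RNA checked the labels. In the control libraries SNORA28 had 0.92, 0 and 0.64 FPKM (fragments per unit of transcript length, relative to all mapped fragments), and in those labelled LV-SNORA28 it had 15.01, 13.66 and 15.2 FPKM. The 6 epithelial markers summed to between 765.66 and 852.78 FPKM per library, the 4 leukocyte markers to at most 0.32 FPKM, and the 4 fibroblast and endothelial markers to between 3.17 and 4.46 FPKM. Nearly all of the last sum was COL1A1, while COL1A2 and DCN had 0 FPKM in every library and PECAM1 at most 0.02 FPKM. Of the FPKM sum, 44.4% ± 2.83 fell to mitochondrially encoded genes in LV-NC but 37.3% ± 1.25 in LV-SNORA28 (SD, n = 3 each), with an exact two-sided permutation p of 0.1, below which a design of this size cannot go. Because FPKM is a relative unit, this share bears on every value below. Read depth is unknown. In bulk RNA, fewer cells that express a gene and less of its RNA per cell cannot be told apart.

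Splicing genes differed little between the groups. All 54 passed the filter of a mean of at least 1 FPKM, and their means ran from 7.585 FPKM for U2AF1 to 166.232 FPKM for SNRPB, with a median of 35.8 FPKM. In limma on log2(FPKM + 1), with adjustment over the 12076 genes fitted, 3 of the 54 (5.56%) had an adjusted p below 0.05 and a higher level in LV-SNORA28, against 6.81% of all genes fitted. These were PTBP3, SRSF6 and HNRNPK. None was lower by that test, against 2.10% of all genes. At an unadjusted p below 0.05 none was lower either, against 6.08% of all genes, and the smallest p among genes with a negative fold change was 0.0537. By that measure 9 were higher, against 22.0% of all genes. The median log2 fold change of the 54 was 0.09, and that of all genes fitted was also 0.09.

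Most of these fold changes were bounded within 1.5-fold. For 47 of the 54, the 95% interval of the fold change lay wholly within 1.5-fold in either direction, as it did for 9056 of the 12076 genes fitted. The other 7 were SRSF2, SRSF6, HNRNPC, HNRNPH2, PTBP3, SNRPD2 and SNRPE. This bound joins the size of a change with its spread. SRSF6 had an SE of 0.07 and PTBP3 of 0.09, while SRSF4, within the bound, had an SE of 0.18. The 2 groups did not overlap for 18 genes, of which 15 were higher in LV-SNORA28, against 27.0% of all genes fitted, and 3 were lower, against 8.16%. The median coefficient of variation of the 54 was 7.31% in LV-NC and 4.25% in LV-SNORA28, and that of all genes fitted was 10.1% and 8.10%. Many genes fitted were less abundant than the 54, and for genes averaging 5 FPKM or more it was 8.01% and 6.50%. The summed level of the 54 genes was 1892, 2076 and 2094 FPKM in LV-NC and 2088, 2217 and 2228 FPKM in LV-SNORA28. The lowest of the LV-SNORA28 sums lay below the highest of the LV-NC sums. LV-NC replicate 1 was the lowest of its group for 30 of the 54 genes, and LV-SNORA28 replicate 1 for 32.

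**Figure D1:**
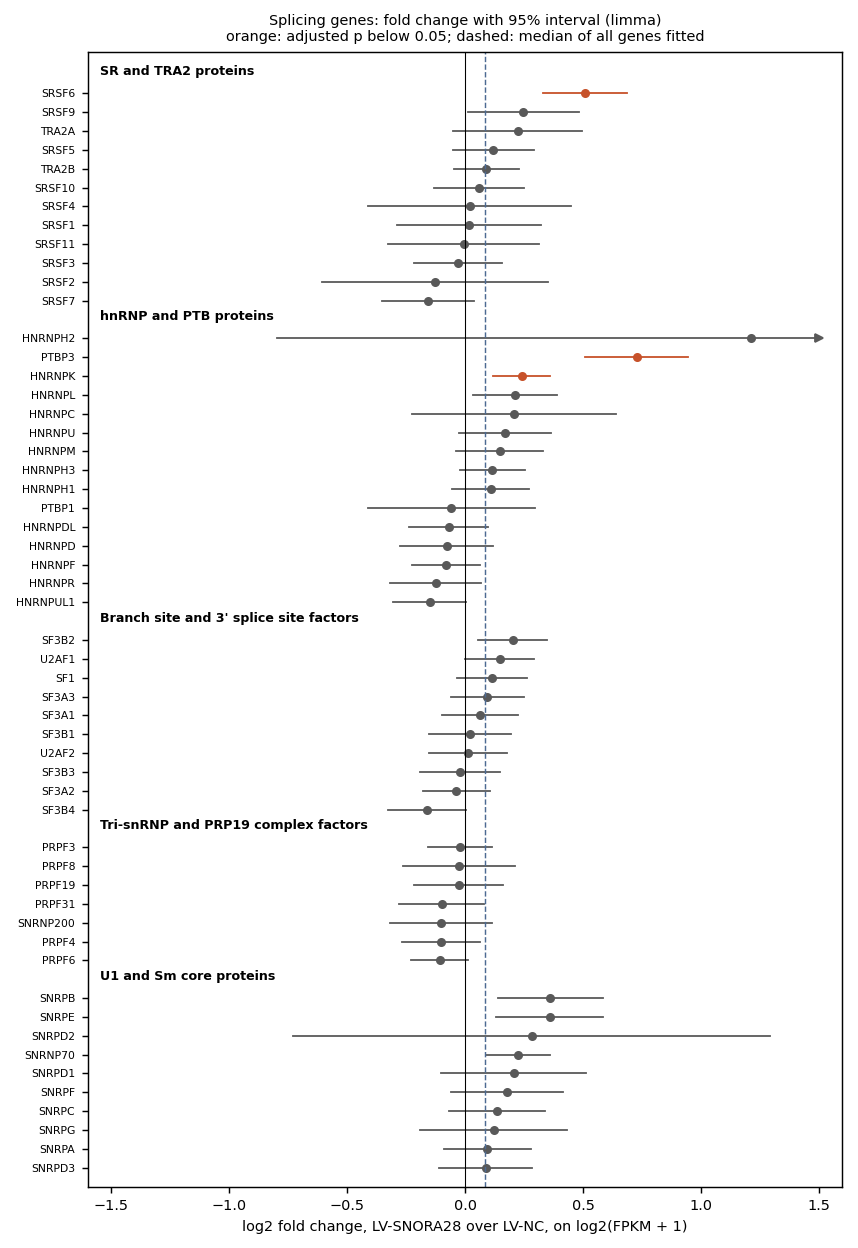
Log2 fold change of each of the 54 splicing genes (x axis, LV-SNORA28 over LV-NC on log2(FPKM + 1)), by group and ordered within it, with the 95% interval from limma. Orange marks the 3 genes with an adjusted p below 0.05, the dashed line is the median of all genes fitted (0.09), and the arrow marks an interval that runs past the axis (HNRNPH2, to 3.22).

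PTBP3, a polypyrimidine tract binding protein that is a paralogue of the exon repressor PTBP1, had the largest increase that passed the test. PTBP3 (ENSG00000119314, GRCh38 chromosome 9, 112217716 to 112333664, minus strand) had 9.56, 8.42 and 9.48 FPKM in LV-NC and 14.85, 14.93 and 17.75 FPKM in LV-SNORA28. Every LV-SNORA28 library was above every LV-NC library. The means were 9.15 ± 0.636 and 15.8 ± 1.65 FPKM (SD, n = 3 each), a ratio of 1.73. The log2 fold change was 0.73 (SE 0.09, 95% interval 0.51 to 0.95), with an adjusted p of 0.00994 in limma. PTBP3 was called under every alternative and without each library in turn. It was also the only one of the 54 with an unadjusted p below 0.05 and a fold change above 1.5, a threshold that 3.79% of all genes passed. With the GC trend removed its log2 fold change was 0.54, below that fold.

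No difference was detected in its closest paralogue. PTBP1 had 25.22, 36.36 and 25.24 FPKM in LV-NC and 28.32, 28.43 and 25.39 FPKM in LV-SNORA28, and the groups overlapped (log2 fold change -0.06, 95% interval -0.41 to 0.29, adjusted p = 0.834 in limma). PTBP2, the form typical of neurons, lay between 0.36 and 0.76 FPKM in all 6 libraries and was below the filter. The canonical transcripts of PTBP3 and PTBP1 were identical at 70.2% of 1665 aligned bases. The difference between the fold changes of PTBP3 and PTBP1 was not tested.

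SRSF6, an SR protein that binds exonic enhancers, was the only SR protein that rose by the test. SRSF6 (ENSG00000124193, chromosome 20, 43457893 to 43466046, plus strand) had 36.29, 39.14 and 42.74 FPKM in LV-NC and 54.78, 58.41 and 55.88 FPKM in LV-SNORA28. The highest LV-NC library stayed below the lowest LV-SNORA28 library. The means were 39.4 ± 3.23 and 56.4 ± 1.86 FPKM (SD, n = 3 each), a ratio of 1.43, and the log2 fold change was 0.51 (SE 0.07, 95% interval 0.33 to 0.69, adjusted p = 0.0138 in limma). The adjusted p was 0.0610 without LV-SNORA28 replicate 2 and 0.0561 without LV-SNORA28 replicate 3. With the trend on GC content removed from each library, the log2 fold change was 0.35 and the adjusted p 0.0577.

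HNRNPK, an abundant hnRNP that binds C-rich RNA, rose by a small amount. HNRNPK (ENSG00000165119, chromosome 9, 83968083 to 83980631, minus strand) had 109.68, 111.6 and 106.95 FPKM in LV-NC and 132.23, 127.42 and 128.4 FPKM in LV-SNORA28. The libraries within each group lay close together and the groups did not overlap. The means were 109 ± 2.34 and 129 ± 2.54 FPKM (SD, n = 3 each), a ratio of 1.18, with a log2 fold change of 0.24 (SE 0.05, 95% interval 0.12 to 0.36, adjusted p = 0.0385 in limma). This call was lost without each of the 6 libraries in turn (log2 fold change from 0.22 to 0.25, adjusted p from 0.0717 to 0.120). With the GC trend removed, the log2 fold change of HNRNPK was 0.10 and the adjusted p 0.404, while with FPKM scaled to the nuclear sum they were 0.21 and 0.0577. It was also above 0.05 without a variance trend (0.0620), with quantile normalization (0.0583) and with no filter (0.0813), at a log2 fold change of 0.22 with quantile normalization and 0.24 in the other 2.

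**Figure D2:**
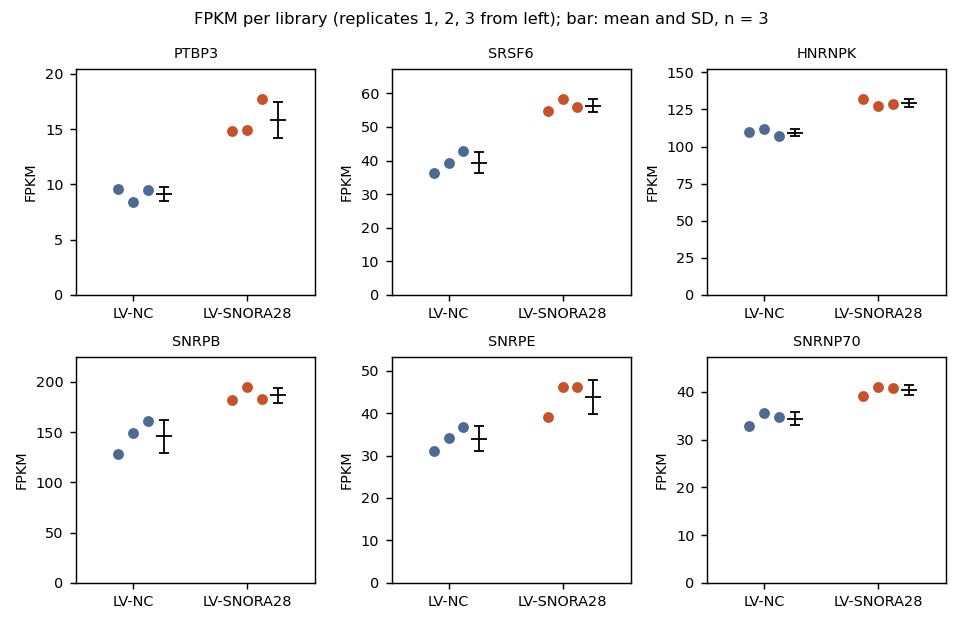
FPKM of PTBP3, SRSF6 and HNRNPK (top), which had an adjusted p below 0.05, and of SNRPB, SNRPE and SNRNP70 (bottom), the 3 with the smallest adjusted p above it. Points are libraries, bars are the mean and SD (n = 3), and axes start at 0. In all 6 panels every LV-SNORA28 library lies above every LV-NC library, as for 27.0% of all genes fitted. The 6 genes were chosen by their adjusted p, which favours such a separation.

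The 3′ UTRs of the genes were read for a 7-mer, because it is contained in the sequence that the methods give for LV-NC. The 7-mer, GTGTCAC, was searched on the transcript strand only in the 3′ UTR of each canonical transcript, and it was chosen with earlier results of these data known. Of the 10539 fitted genes with such a 3′ UTR, 9.70% held it. Genes with the 7-mer were called higher in 15.5% of cases and had a median log2 fold change of 0.17, and genes without it in 6.43%, with a median of 0.08. These sets were not matched for 3′ UTR length or GC content. Among the splicing genes it was found in 3 of 54, namely PTBP3, SRSF6 and SNRPD1, a protein of the Sm core. The sites of PTBP3 and SRSF6 are shown because these are 2 of the 3 genes that rose. They are given 5′ to 3′ on the transcript strand with the 7-mer in capitals, on GRCh38 at chr9:112219181-112219207 (minus strand, 3′ UTR of PTBP3) and chr20:43462474-43462500 (plus strand, 3′ UTR of SRSF6).
PTBP3: ttgcatcaaaGTGTCACctcattgctc
SRSF6: tttctaggagGTGTCACaatgtagggt

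The 7-mer and the calls were then set side by side. SNRPD1 had a log2 fold change of 0.21 with an adjusted p of 0.344 in limma and was not called, although it holds the 7-mer. Of the 51 splicing genes without it, 1 was called (HNRNPK), beside 6.43% of all genes without it called higher. The median log2 fold change of the 51 was 0.06. The 3 genes with the 7-mer had long 3′ UTRs, of 5416 nt in PTBP3, 4382 nt in SNRPD1 and 3180 nt in SRSF6, while the median of the 54 was 1035 nt. Another 6 genes had a 3′ UTR of at least 3180 nt without the 7-mer (SRSF1, SRSF3, SRSF10, HNRNPR, HNRNPU and SF3B3). None of these 6 was called, and their log2 fold changes ran from -0.12 to 0.17. A set of 6 genes is too small to set against a share of 6.43%. A match to these letters is a description of the sequence and does not show a binding site. The parts of the 7-mer, of 3′ UTR length and of GC content in the result were not tested.

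**Figure D3:**
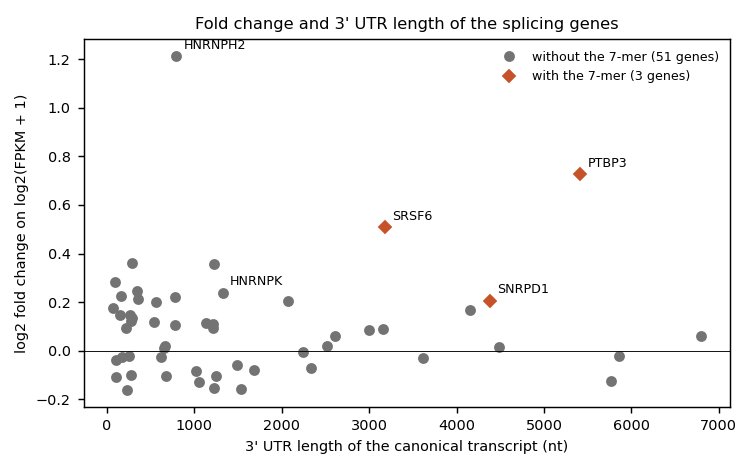
Length of the 3′ UTR of the canonical transcript (x axis, nt) and log2 fold change on log2(FPKM + 1) (y axis) of the 54 splicing genes. Orange diamonds are the 3 genes with the 7-mer, all with a log2 fold change above 0, beside 66.7% of all genes fitted. Grey points are the 51 genes without it, of which 6 have a 3′ UTR of 3180 nt or more.

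Apart from SRSF6, none of the 12 SR and TRA2 proteins passed the test. The log2 fold changes of the other 11 ran from -0.16 for SRSF7 to 0.25 for SRSF9. The median of all 12 was 0.04. SRSF7, an SR protein that also serves in mRNA export, had 25.32, 25.24 and 26.73 FPKM in LV-NC and 21.44, 25.75 and 22.06 FPKM in LV-SNORA28. The groups overlapped through LV-SNORA28 replicate 2 (adjusted p = 0.269 in limma). SRSF9 and TRA2B had groups that did not overlap, with means of 33.2 ± 4.08 and 39.4 ± 1.78 FPKM (SD, n = 3 each) for SRSF9 and of 9.28 ± 0.108 and 9.95 ± 0.332 FPKM (SD, n = 3 each) for TRA2B. The adjusted p in limma was 0.164 for SRSF9 and 0.362 for TRA2B. SRSF1, the founding SR protein, had 31.9 ± 5.69 and 32.0 ± 2.23 FPKM (SD, n = 3 each). SRSF3, the smallest SR protein, had 24.8 ± 2.21 and 24.2 ± 0.757 FPKM (SD, n = 3 each), and its 95% interval ran from -0.22 to 0.16 on the log2 scale. SRSF2, which binds exonic enhancers, was the least settled of the 12, with 36, 39.84 and 28.42 FPKM in LV-NC and 27.99, 26.34 and 42.01 FPKM in LV-SNORA28. Its highest and lowest values were both in LV-SNORA28 (log2 fold change -0.13, 95% interval -0.61 to 0.35).

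Among the hnRNP and PTB proteins, PTBP3 and HNRNPK were the only ones of 15 that passed the test, and the median log2 fold change was 0.12. HNRNPF, which binds G-rich RNA and was the third most abundant of the 54, had 110.2, 113.78 and 122.37 FPKM in LV-NC and 107.17, 111.66 and 107.95 FPKM in LV-SNORA28. The groups overlapped (log2 fold change -0.08, adjusted p = 0.427 in limma). HNRNPC, which binds uridine tracts, had 65.1 ± 13.5 and 75.1 ± 13.6 FPKM (SD, n = 3 each), so that the spread within a group was larger than the difference. HNRNPM, which binds GU-rich RNA, had 46.2 ± 3.38 and 51.2 ± 2.96 FPKM (SD, n = 3 each), and its groups overlapped. HNRNPL, which binds CA-rich RNA, had 37.1 ± 3.24 and 43.0 ± 0.590 FPKM (SD, n = 3 each), and HNRNPU, a nuclear scaffold protein, had 22.8 ± 1.86 and 25.7 ± 1.51 FPKM (SD, n = 3 each). Both had groups that did not overlap, with an adjusted p of 0.127 for HNRNPL and 0.235 for HNRNPU in limma. HNRNPUL1 was the only gene of this group with all LV-SNORA28 libraries below all LV-NC libraries, at 42.0 ± 0.792 and 37.7 ± 2.38 FPKM (SD, n = 3 each), with an adjusted p of 0.186 in limma.

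HNRNPH2 had the largest log2 fold change of all 54 and was singled out after its values were seen, because a single library set it. HNRNPH2, which like HNRNPF binds G-rich RNA (chromosome X, 101408222 to 101414133), had 4.11, 47.84 and 45.48 FPKM in LV-NC and 54.38, 49.96 and 50.11 FPKM in LV-SNORA28. LV-NC replicate 1 was far below the other 5 libraries. The log2 fold change was 1.21 (SE 0.84, 95% interval -0.80 to 3.22, adjusted p = 0.395 in limma), and without LV-NC replicate 1 it was 0.14. The readthrough gene RPL36A-HNRNPH2 (ENSG00000257529, chromosome X, 101391011 to 101412297) shares exons with HNRNPH2 on the same strand. LV-NC libraries had 23.92, 0 and 1.85 FPKM of it, and all 3 LV-SNORA28 libraries were listed at 0. The library with the low HNRNPH2 value was thus the library with the high value of the readthrough gene. Reads of the shared exons cannot be assigned to either gene with certainty, so the values of both are uncertain.

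**Figure D4:**
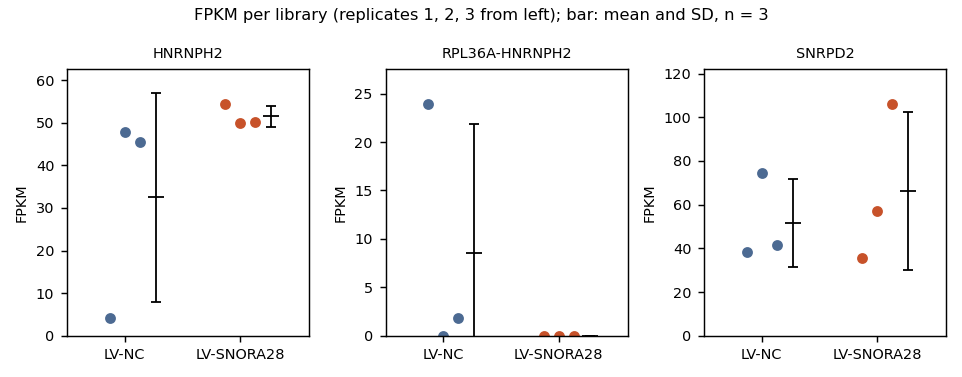
FPKM in each library for HNRNPH2, for the readthrough gene RPL36A-HNRNPH2 that shares its exons, and for SNRPD2. Points are libraries, bars are the mean and SD (n = 3; bars that reach below 0 are not drawn past the axis). LV-NC replicate 1 has 4.11 FPKM of HNRNPH2 and 23.92 FPKM of the readthrough gene, and the SNRPD2 values of the groups overlap.

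None of the 10 factors of the branch site and the 3′ splice site passed the test. Their log2 fold changes ran from -0.16 for SF3B4 to 0.20 for SF3B2, with a median of 0.04, and all 10 had a 95% interval within 1.5-fold. SF3B1, the SF3b subunit at the branch site that is often mutated in cancer, had 40.8 ± 3.03 FPKM in LV-NC and 41.4 ± 1.69 FPKM in LV-SNORA28 (SD, n = 3 each). SF3B2, an SF3b subunit near the branch site, had 25.0 ± 1.12 and 28.9 ± 0.960 FPKM (SD, n = 3 each) without overlap (adjusted p = 0.0903 in limma). SF1, which binds the branch site before U2 does, had 35.7 ± 0.137 and 38.7 ± 2.36 FPKM (SD, n = 3 each), also without overlap (adjusted p = 0.290 in limma). U2AF2, which binds the polypyrimidine tract, had 43.3 ± 2.95 and 43.6 ± 1.65 FPKM (SD, n = 3 each). SF3B4, an SF3b subunit, had 70.16, 80.32 and 79.26 FPKM in LV-NC and 68.46, 69.95 and 66.48 FPKM in LV-SNORA28. All 3 LV-SNORA28 libraries were below the LV-NC libraries (adjusted p = 0.191 in limma), and with quantile normalization the log2 fold change was -0.25 and the adjusted p 0.0449.

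U2AF1, the small U2AF subunit that recognizes the AG at the intron end, was the least abundant of the 54, and its level is uncertain. U2AF1 (chromosome 21, 43092956 to 43107570) had 7.15, 6.95 and 7.35 FPKM in LV-NC and 7.85, 7.86 and 8.35 FPKM in LV-SNORA28. A second copy on the same chromosome (ENSG00000275895, 6484623 to 6499248), which GENCODE annotates as an artifact of the assembly, was identical at 944 of 945 bases. Its values were 6.57, 6.66 and 7.06 FPKM for LV-NC against 7.18, 7.62 and 7.3 FPKM for LV-SNORA28. Reads of U2AF1 could have been placed at either locus, and both loci had groups that did not overlap.

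The 7 factors of the tri-snRNP and the PRP19 complex all had a log2 fold change below 0, and none passed the test. The values ran from -0.11 to -0.02 with a median of -0.10, while 66.7% of all genes fitted had a value above 0. Under each alternative all 7 were below 0, except that 5 of 7 were without LV-NC replicate 3. PRPF8, the large U5 protein at the catalytic centre, had 58.2 ± 7.82 FPKM in LV-NC and 56.8 ± 1.81 FPKM in LV-SNORA28 (SD, n = 3 each). SNRNP200, the helicase that unwinds U4 from U6, had 56.0 ± 6.03 and 52.0 ± 2.29 FPKM (SD, n = 3 each). PRPF19, the ubiquitin ligase after which the PRP19 complex is named, had 62.8 ± 5.84 and 61.4 ± 2.23 FPKM (SD, n = 3 each). PRPF6, a bridge between U5 and U4/U6, was the only one whose groups did not overlap, at 45.3 ± 0.816 and 42.0 ± 0.549 FPKM (SD, n = 3 each), with an adjusted p of 0.221 in limma. All 7 had a 95% interval within 1.5-fold. A further list of splicing genes, described below, did not share this direction as a whole. Among its 27 tri-snRNP and LSm proteins, 16 were above 0 and 11 below, with a median log2 fold change of 0.04. Among its 30 activation and catalytic step proteins, 23 were above 0 and 7 below, with a median of 0.11.

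The 10 proteins of the U1 particle and the Sm core all had a log2 fold change above 0, beside 66.7% of all genes fitted. Their median was 0.19, beside 0.09 over all genes, but none of the 10 passed the test. At an unadjusted p below 0.05, 3 were higher, against 22.0% of all genes fitted, namely SNRPB, SNRPE and SNRNP70. SNRPB, an Sm protein and the most abundant of the 54, had 127.79, 148.63 and 160.89 FPKM in LV-NC and 181.87, 195.19 and 183.02 FPKM in LV-SNORA28. No overlap was seen (log2 fold change 0.36, adjusted p = 0.0612 in limma). SNRNP70, the U1-70K protein, had 32.91, 35.56 and 34.76 FPKM in LV-NC and 39.21, 41.09 and 40.79 FPKM in LV-SNORA28, also without overlap (log2 fold change 0.22, adjusted p = 0.0593). SNRPE, an Sm protein, had 30.99, 34.19 and 36.81 FPKM in LV-NC and 39.18, 46.2 and 46.26 FPKM in LV-SNORA28, without overlap (log2 fold change 0.36, adjusted p = 0.0653 in limma). All 3 lay close to the threshold, and SNRPB and SNRNP70 passed it when only genes averaging 5 FPKM or more were fitted, with an adjusted p of 0.0486 and 0.0460. With quantile normalization SNRPB also passed (log2 fold change 0.41, adjusted p = 0.0281). SNRPA and SNRPC, the other U1 proteins in the list, had 26.2 ± 1.18 and 28.0 ± 2.28 FPKM for SNRPA and 62.4 ± 6.54 and 68.4 ± 1.74 FPKM for SNRPC (SD, n = 3 each), with groups that overlapped. The summed level of the 10 genes was 462 ± 42.6 FPKM in LV-NC and 552 ± 46.0 FPKM in LV-SNORA28 (SD, n = 3 each). With the GC trend removed, 8 of 10 were above 0, and their median was 0.06 (all genes -0.0051). The number above 0 was 9 of 10 without LV-SNORA28 replicate 3, and 10 of 10 under each other alternative.

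Sm proteins form a ring of 7 subunits around the snRNA, yet their mean mRNA levels per unit of length ran from 18.4 to 166 FPKM. SNRPB had a mean of 166 FPKM over the 6 libraries, SNRPD2 58.9 FPKM, SNRPD3 39.3 FPKM, SNRPE 38.9 FPKM, SNRPG 36.6 FPKM, SNRPF 18.8 FPKM and SNRPD1 18.4 FPKM. SNRPB was above every other ring gene in each library. The places of SNRPG and SNRPE in this order are uncertain, since their pseudogene copies had means of 35.8 and 29.2 FPKM. The values of SNRPD2, SNRPD3, SNRPE and SNRPG overlapped between libraries, as did those of SNRPF and SNRPD1. In replicate 1 of both groups SNRPD2 was below SNRPD3. SNRPD2, singled out after its values were seen, was the most variable, with 38.13, 74.71 and 41.72 FPKM in LV-NC and 35.59, 57.06 and 106.05 FPKM in LV-SNORA28. High and low libraries of SNRPD2 occurred in both groups (log2 fold change 0.28, 95% interval -0.73 to 1.29, adjusted p = 0.708 in limma).

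**Figure D5:**
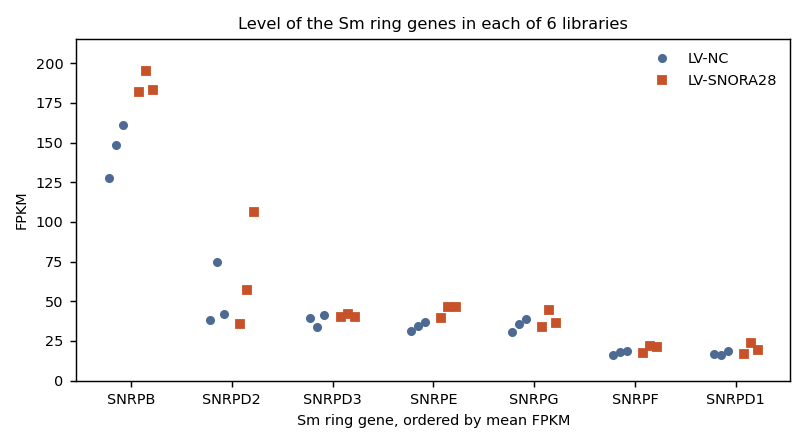
FPKM of the 7 Sm ring genes, ordered by mean level, in each of the 3 LV-NC libraries (circles) and 3 LV-SNORA28 libraries (squares). SNRPB lies between 127.79 and 195.19 FPKM, above the other 6 genes in every library, and SNRPD2 spreads from 35.59 to 106.05 FPKM.

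Some of these levels are uncertain because other loci share their sequence. Of the 54 genes, 28 have annotated pseudogenes named after them, 104 in all. The 20 copies of SNRPG together had 41.33, 28.22 and 22.19 FPKM in LV-NC and 55.54, 21.88 and 45.57 FPKM in LV-SNORA28, which was 97.7% of the mean of SNRPG itself. The 10 copies of SNRPE reached 74.9% of the parent, the 9 copies of HNRNPC 23.8%, and the 2 copies of HNRNPL 16.3%. For HNRNPK the 5 copies had 10.1, 10.4 and 12.27 FPKM in LV-NC and 13.39, 12.02 and 13.42 FPKM in LV-SNORA28, with groups that overlapped, and reached 9.996% of the parent. For SRSF6 the copies reached 7.13%. Exons of 12 of the 54 genes overlap those of another gene on the same strand, and for 5 of them (SRSF1, SRSF9, HNRNPH2, SNRPB and SNRPD3) the other gene had over 0.5 FPKM in a library. Of the 54 genes, 18 overlap a gene on the opposite strand, some of them among the 12.

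Lower GC content went with higher fold changes over all genes fitted and among the 54, but not family by family. The median GC of the canonical transcripts was 47.1% for the 54 genes and 49.1% for all genes fitted, and PTBP3 (36.4%), SRSF6 (39.8%) and HNRNPK (41.6%) were all below both. The 27 splicing genes with the lower GC had a median log2 fold change of 0.11, and the 27 with the higher GC 0.01. Over all genes, the median was 0.14 for the 5242 below the median GC of the 54. For the 6811 at or above it, the median was 0.05. By family, the median GC was 40.5% for SR and TRA2 proteins, 42.4% for hnRNP and PTB proteins, 47.1% for U1 and Sm core proteins, 52.3% for tri-snRNP and PRP19 complex factors and 53.5% for the branch site factors. In the same order, the median log2 fold changes were 0.04, 0.12, 0.19, -0.10 and 0.04. With the GC trend removed, PTBP3 kept its call (adjusted p = 0.0116 in limma), SRSF6 and HNRNPK did not, and HNRNPR, an hnRNP of the lowest GC among the 54, was called lower (log2 fold change -0.32, adjusted p = 0.0466). That removal and quantile normalization also changed the balance over all genes, from 6.81% higher and 2.10% lower to 3.03% and 2.81% with the GC trend removed and to 3.73% and 3.11% with quantile normalization.

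The rest of the splicing pathway was followed in a further list of 164 genes, compiled by function, also with earlier results known. Of these, 159 passed the filter. By the test 16 were higher (10.1%) and none was lower, beside 6.81% and 2.10% of all genes fitted. At an unadjusted p below 0.05 there were 46 higher and none lower, beside 22.0% and 6.08% of all genes fitted. The median log2 fold change was 0.09, equal to that of all genes to this precision. The largest increases that passed the test were those of PDCD7, HNRNPUL2 and HNRNPAB.

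PDCD7 encodes the 59K protein of the U11/U12 di-snRNP, which serves the rare minor introns. It had 4.09, 4.42 and 4.18 FPKM in LV-NC and 8.2, 8.24 and 8.92 FPKM in LV-SNORA28, and its level was close to double in every LV-SNORA28 library. Its log2 fold change was 0.85 (95% interval 0.69 to 1.01, adjusted p = 0.00286 in limma). It was the only one of 12 minor spliceosome proteins that passed the test. HNRNPUL2, a paralogue of HNRNPU and HNRNPUL1, had 21.25, 19.8 and 21.33 FPKM in LV-NC and 35.82, 35.72 and 37.84 FPKM in LV-SNORA28. This was a log2 fold change of 0.78 (95% interval 0.64 to 0.92, adjusted p = 0.00271). HNRNPAB, an hnRNP of the type that shuttles between nucleus and cytoplasm, had 52.13, 56.09 and 64.85 FPKM in LV-NC and 89.1, 103.55 and 101.73 FPKM in LV-SNORA28. This was a log2 fold change of 0.76 (95% interval 0.52 to 1.00, adjusted p = 0.0106 in limma). The groups did not overlap for any of these 3 genes, which were chosen as the largest called increases. Over all genes fitted, 27.0% were higher without overlap.

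By function, the calls in this further list were spread over most classes, beside 6.81% of all genes fitted. They fell to 6 of 29 other splicing regulators (HNRNPUL2, HNRNPAB, MBNL1, HNRNPLL, ESRP1 and KHDRBS1), 3 of 30 activation and catalytic step proteins, 2 of 27 tri-snRNP and LSm proteins, 2 of 20 further U1 and U2 proteins and 2 of 19 exon junction and SR-related proteins. ESRP1 is an epithelial splicing regulator, and MBNL1 is the factor sequestered by CUG repeats in myotonic dystrophy. None of 5 SR protein kinases and none of 17 proteins of snRNP assembly and import passed the test, and at an unadjusted p below 0.05 these classes had 2 and 5 higher genes, beside 22.0% of all genes fitted. The 7-mer GTGTCAC was held by 12 of the 159 genes, of which 3 were called (HNRNPAB, MBNL1 and LSM8), beside 15.5% of all genes with it. Of the 147 without it 13 were called, beside 6.43% of all genes without it.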

How the data were processed

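RNA sequencing of HCT116 cells gave 6 libraries, 3 LV-NC and 3 LV-SNORA28, grouped by sample title. The authors deposited 1 table per library with Ensembl identifiers and FPKM values. The submitters' processing notes name cutadapt 1.9, HISAT2 2.2.1, StringTie 2.1.6, DESeq2 and edgeR with build hg38; their roles and the annotation release are not given in the sources used here. Symbols were found for 60401 of 60612 identifiers in GENCODE release 44 (GRCh38), which also gave coordinates, UTRs and GC content.

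Per library, the FPKM sum was 306048 to 374676 and 11664 to 12259 genes had at least 1 FPKM. No step of a whole read could be recovered (31.2% to 41.8% of low values lay near a step), so depth is unknown and no count model was run. Values were fitted as log2(FPKM + 1) for 12076 genes, those averaging 1 FPKM or more over the 6 libraries, with limma 3.58.1 (R 4.3.3; lmFit, eBayes with a mean-variance trend, two-sided, Benjamini-Hochberg). "Called" means an adjusted p below 0.05. Fold changes understate those of low genes. On data simulated for LV-SNORA28 against LV-NC over 12076 genes, the fit recovered 40% of log2 changes of 0.3, 94% of 0.5 and 100% of 1. The simulated noise was normal with an SD set by the mean level, so these rates do not cover genes that vary more, such as HNRNPH2.

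The 54 genes, the groups, the further list and the 7-mer were chosen with earlier results of these data known. Values per library are given for every called gene, the 3 most abundant, the 3 with the smallest adjusted p of 0.05 or above and the 2 with the lowest fold change, and for the 3 largest increases among called genes of the further list. Others were named as examples after their values were seen. Alternatives were another variance model, quantile normalization, nuclear scaling, filters of 5 FPKM or none, a pseudocount of 0.1, a replicate block, removal of a GC trend, an unadjusted p, and each library left out. Over all genes fitted, same-numbered libraries did not deviate together (r = -0.04, 0.09 and 0.01). Among the 54, replicate 1 was the lowest of its group for 30 genes in LV-NC and for 32 in LV-SNORA28. The sequence of 1 site is not reported here.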

Additional observations from a re-analysis of the deposited data

How the results depend on the processing

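FPKM without depth limits what low genes can show, and 3 libraries per group limit every count. The number of splicing genes called higher was 3, beside 6.81% of all genes. It was 5 with a filter of 5 FPKM (all genes 11.1%) and 1 with the GC trend removed (all genes 3.03%). At an unadjusted p it was 9 (all genes 22.0%). When a library was left out it was from 1 to 2, beside 1.58% to 4.07% of all genes. It was 1 without LV-SNORA28 replicate 2 (all genes 1.58%) and 1 without LV-SNORA28 replicate 3 (all genes 1.66%). The number called lower (0) was 1 with quantile normalization (SF3B4, all genes 3.11%) and 1 with the GC trend removed (HNRNPR, all genes 2.81%). It was 0 in every fit without a library, beside 0.729% to 1.13% of all genes. The number past both an unadjusted p of 0.05 and a 1.5-fold change was 1 (PTBP3), beside 458 of the 12076 genes fitted. It was 0 with the GC trend removed (all genes 378) and 1 without each library in turn (all genes 431 to 515). The median log2 fold change of the 54 was 0.09, as was that of all genes. It was 0.0037 with quantile normalization (all genes -0.0013) and -0.0298 with the GC trend removed (all genes -0.0051). When a library was left out it was from 0.06 to 0.09, and over all genes from 0.07 to 0.10. In the further list, the number called higher was 16, beside 6.81% of all genes. It was 8 with quantile normalization (all genes 3.73%), 9 with no filter (all genes 0.934%) and 7 with the GC trend removed (all genes 3.03%). At an unadjusted p it was 46 (all genes 22.0%). When a library was left out it was from 6 to 10, beside 1.58% to 4.07% of all genes. The cause of these changes was not tested. With the replicate number as a block, 3 splicing genes and 9 of the further list were called higher, beside 3.13% of all genes. The 3 were PTBP3, SNRPE with an adjusted p of 0.0490 in limma, and SRSF6, of which 2 were shared with the fit without the block. The adjusted p of PTBP3 ranged from 0.00636 to 0.0359 over the alternatives that kept all libraries. The difference in mitochondrial share ranged from -8.02 to -5.51 percentage points when a library was left out. Among the genes whose values are given per library by the naming rule, with SNORA28 and HNRNPH2, single genes kept their direction and side of the threshold in 176 of the values computed under alternatives, 15 lost a call, 5 gained one and none changed direction. HNRNPR, outside that set, gained a call with the GC trend removed. DESeq2 could not be run, since the files used hold FPKM and no counts.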
